A study of Mus musculus with 6 samples.

Results

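The cadherin superfamily genes examined here were the 93 Ensembl mouse genes, of 43346 listed, whose symbol is Cdh followed by a number or Pcdh followed by letters or numbers. They carried 92 symbols, because Pcdha11 stands on 2 Ensembl genes. The set held 23 cadherins (Cdh), 12 protocadherins outside the gene clusters, and 58 clustered protocadherins, of which 14 belong to the alpha cluster (Pcdha), 22 to the beta cluster (Pcdhb) and 22 to the gamma cluster (Pcdhg). The clusters lie next to each other on chromosome 18, which held 61 of the 93 genes. Of the 93 genes, 90 had at least 1 count in some library and 87 had enough counts to be tested. Cdh1, Cdh5, Cdh16, Cdh19, Pcdh12 and Pcdhb1 were not tested.

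Expression was measured by RNA-seq in cultured mouse retinal ganglion cells (RGCs), the neurons that send the axons of the optic nerve, with 2 libraries in each of 3 groups. All cells were immunopanned with an antibody to Thy1, plated at 250000 per well, given 1.5 μl of adeno-associated virus (AAV) 4 h later at about 100000 vector genomes per cell, and lysed 72 h after plating. The control virus encoded a fluorescent protein and no Sox11, and whether it held luciferase too, as that of the animal experiments did, is not given for these cultures. The Sox11 virus encoded the transcription factor Sox11 and EGFP, and the Sox11 K91A virus encoded EGFP and a Sox11 that lacks a lysine to which the small protein SUMO is attached. The age of the cells is given both as embryonic day 18 and as postnatal day 2, and the mice of the study were C57BL/6. Wells were plated in quadruplicate and RNA samples were sequenced in duplicate, and whether the libraries of a group came from separate cultures or from 1 RNA sample is not given, so p-values measure the spread between these libraries, which may be technical. No sort for EGFP is described, so each library may mix transduced cells with others.

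Cadherins are calcium-dependent adhesion proteins, and the classical type I and type II members bind catenins that tie them to the actin cytoskeleton. Protocadherins have related extracellular repeats but other cytoplasmic tails, and the delta protocadherins among them act in axon growth and in sorting of neurites. In the alpha and gamma clusters each gene joins its own variable first exon to exons shared by the whole cluster, whereas Pcdhb genes stand alone. A neuron expresses its own mixture of these genes, and gamma protocadherins are known in the retina for self-avoidance of dendrites and for survival of neurons.

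The libraries held between 27521981 and 37061718 expected counts, so that 1 count was worth between 0.0259 and 0.0364 CPM, counts scaled to the library total. Sox11 itself was at 234 and 332 CPM in control, 9180 and 14600 with Sox11, and 12000 and 7030 with Sox11 K91A. Xist, which is made in female cells, was at 95.9 CPM in control replicate 2 and 254 in Sox11 replicate 2, and between 400 and 526 CPM in the other 4 libraries. The control libraries differed from each other over the cadherin genes. Of the 86 tested genes with 10 or more counts in both, 77 were higher in control replicate 1, and the median gap was 0.564 on the log2 scale. The median gap was 0.211 between the Sox11 libraries and 0.138 between the Sox11 K91A libraries.

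Summed over 9 RGC markers, the level was 10300 and 9546 CPM in control, 6559 and 3998 with Sox11, and 5268 and 6863 with Sox11 K91A. Nefl held most of that sum, at 7090 and 6340 CPM in control, 4100 and 2190 with Sox11, and 3100 and 4330 with Sox11 K91A. Slc17a6, Nefl and Thy1 were downregulated with Sox11 and Slc17a6 with Sox11 K91A, while Rbpms, Isl1 and Pou4f1 did not pass the test. Of the glial markers, Gfap had no count, Aqp4 did not exceed 0.248 CPM, and Glul, a glial enzyme, was upregulated with both viruses. Rlbp1 and Slc1a3, at most 3.74 and 1.01 CPM, were below both controls in all 4 libraries with a Sox11 virus and did not pass. Endothelial markers summed to between 4.51 and 12.8 CPM, with Pecam1 and Tek upregulated with Sox11 K91A from at most 0.501 CPM in control, and microglial markers to between 0.181 and 1.33. The endothelial markers did not move together. Tie1, too low to be tested, was at 0.0716 and 0.415 CPM in control and at most 0.031 in the others. Cldn5, also not tested, did not exceed 0.362 CPM, and Kdr and Esam did not pass. Bipolar markers summed to 108.7 and 90.4 CPM in control and between 39.8 and 62.7 in the others, and Prkca, which held most of that sum, was downregulated with both viruses. Amacrine markers summed to 218.6 and 94.7 CPM in the control libraries and between 35.3 and 105.1 in the others, and they did not move together. Slc6a9 was downregulated with both viruses, and Gad2 was below both controls with both and did not pass. Tfap2a, Tfap2b and Chat had log2 fold changes of 2.06, 1.15 and 2.66 with Sox11. With Sox11 K91A these were 2.62, 2.13 and 3.01, and none passed. Gad1 changed by -0.59 with Sox11 and 1.06 with Sox11 K91A and did not pass. In these bulk cultures fewer cells of a type and less RNA per cell cannot be told apart, and the part of cell composition in the results below was not tested.

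Levels in control cultures are given as TPM, which corrects for gene length. The median of the 93 genes was 6.43 TPM, and 81 genes reached 1 TPM. By the mean of both control libraries, the highest were Pcdhgc4 at 108 TPM and Pcdhac2 at 89.6, both C-type genes near the end of their clusters, then Pcdh9 at 70.9, Cdh2 at 65.0, Cdh6 at 61.4, Pcdh7 at 61.3, Pcdh17 at 60.9 and Pcdh1 at 60.5. The control libraries did not give the same order. Pcdhgc4 was at 73.6 TPM in control replicate 1, where Pcdhac2 at 121 and 5 other genes were above it, and at 142 in control replicate 2, where Cdh2 at 63.0 was above Pcdhac2 at 57.8. Cdh6 was at 94.4 and 28.3 TPM and Pcdh17 at 89.5 and 32.4, so neighbours in this order did not differ beyond the spread of the control libraries. A broad set of delta protocadherins was thus present beside N-cadherin, and the 4 delta-1 genes ranged from 21.6 to 70.9 TPM. Beta genes were lower, with a median of 3.89 TPM and Pcdhb17 the highest at 14.4. Several cadherins known from other tissues were near or at 0, though Cdh15 of muscle was at 4.60 TPM. Cdh1 of epithelia, at 0.110 TPM, and Cdh5 of endothelium, at 0.010 TPM, had few counts, and Cdh16 of kidney and Cdh19 were listed at 0. Pcdh12, an endothelial protocadherin, was at 0.045 TPM and Pcdhb1 was listed at 0.

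**Figure D1:**
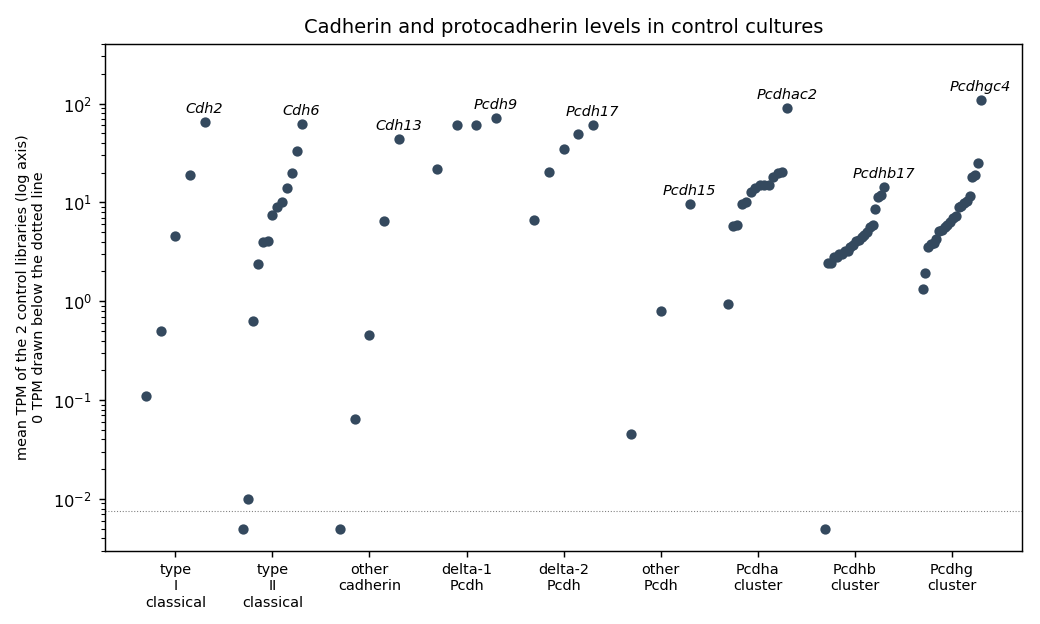
Mean TPM of the 2 control libraries on a log axis for each of the 93 genes, in columns by subgroup and sorted within each; the highest gene of each subgroup is named and genes at 0 sit below the dotted line. Pcdhgc4 at 108 TPM and Pcdhac2 at 89.6 stand above the other genes of their clusters.

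The first question was how each virus changed these genes against control. With Sox11, 15 of the 87 genes tested were upregulated, against 9.96% of all 15747 genes tested, and 6 were downregulated, against 10.2%. For Sox11 K91A, the test found 7 genes upregulated, against 5.81% of all genes, and 3 downregulated, against 4.81%. The upregulated genes were Cdh2, Cdh24, Pcdh8 and 12 clustered protocadherins with Sox11, and all 6 downregulated genes lay outside the clusters. Of the 22 genes that passed with either virus, 9 passed with both, 6 higher and 3 lower. The median log2 fold change of the 87 genes was 0.44 with Sox11 and 0.38 with Sox11 K91A, where that of all genes was 0.00858 and 0.0174. The medians of the parts of the set differed in sign. The median was 0.60 and 0.51 for clustered genes, many of which share exons. It was -0.49 and -0.39 for Cdh genes and -0.54 and -0.41 for protocadherins outside the clusters. The summed level of Cdh genes was not lower, at 635.6 and 489 CPM in control and between 636.7 and 686.6 in the others. That of protocadherins outside the clusters was 1647 and 862 CPM in control and between 848 and 1045 in the others. Only control replicate 1 stood well above the rest there.

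A gene passed with an adjusted p under 0.05 in limma-voom, with Benjamini-Hochberg adjustment over all genes, and a fold change of more than 1.2 in size. Each adjusted p given is of this kind, and each error of a log2 fold change is an SE. Both comparisons share the control libraries. These counts rested on single libraries. The share of all genes called also moved with the library left out, so no such shift is read as particular to this set. With Sox11 the higher and lower counts were 38 and 2 without control replicate 1, 5 and 8 without control replicate 2, 9 and 8 without Sox11 replicate 1, 8 and 3 without either Sox11 K91A library, and 0 and 0 without Sox11 replicate 2, where limma-voom called 0 of all genes and 24 of the 87 had an unadjusted p under 0.05. With Sox11 K91A they were 27 and 2 without control replicate 1, 0 and 0 without control replicate 2, 4 and 4 without Sox11 replicate 1, 3 and 4 without Sox11 replicate 2, 0 and 0 without Sox11 K91A replicate 1, and 1 and 0 without Sox11 K91A replicate 2. In the settings with 0 calls, the number of the 87 genes at an unadjusted p under 0.05 was 31 without control replicate 2 and 16 without Sox11 K91A replicate 1. Without control replicate 2 and Sox11 replicate 2 together, an alternative chosen after seeing the data, the counts were 6 and 7 with Sox11 and 11 and 16 with Sox11 K91A. By edgeR, 12 were higher and 3 lower with Sox11, and by DESeq2, 22 and 9. Of all genes, edgeR called 9.34% higher and 8.68% lower with Sox11, and DESeq2 13.4% and 14.1%.

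Among the type I classical cadherins, Cdh2, which encodes N-cadherin, the main classical cadherin of neurons, was upregulated with both viruses. Cdh2 (ENSMUSG00000024304.10, GRCm38 chromosome 18, 16588877 to 16809246, minus strand) was at 141 and 138 CPM in control, 318 and 449 with Sox11, and 355 and 302 with Sox11 K91A. The control libraries were nearly equal and all 4 libraries with a Sox11 virus lay above them. The rise was 2.71-fold with Sox11, a log2 fold change of 1.44 ± 0.19 (adjusted p = 0.012), and 2.35-fold with Sox11 K91A, 1.23 ± 0.19 (adjusted p = 0.020). It passed under 18 of 19 alternatives with Sox11, lost without Sox11 replicate 2, and under 16 of 19 with Sox11 K91A, lost without control replicate 2 or either Sox11 K91A library.

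Cdh4, or R-cadherin, a classical cadherin first described in the retina, was at 62.0 and 57.9 CPM in control, 52.3 and 37.1 with Sox11, and 57.9 and 53.6 with Sox11 K91A, with log2 fold changes of -0.45 ± 0.19 (adjusted p = 0.13) and -0.10 ± 0.18 (adjusted p = 0.75). Cdh15, the M-cadherin of muscle, was low and fell with Sox11, from 6.87 and 5.89 CPM in control to 2.98 and 1.72, a log2 fold change of -1.49 ± 0.36 (adjusted p = 0.032). With Sox11 K91A it was at 2.82 and 4.05 CPM, and the change of -0.90 ± 0.33 did not pass (adjusted p = 0.12). Both pairs of libraries lay below the controls. The call with Sox11 was lost without any 1 of 5 libraries, the exception being Sox11 replicate 1, and without control replicate 2 and Sox11 replicate 2 together. Cdh3, the P-cadherin of pigment epithelium, was at or below 1.53 CPM in every library and did not pass.

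Among the 13 type II classical cadherins, of which 11 were tested, Cdh24 rose and Cdh18, Cdh20 and Cdh22 fell with Sox11, and Cdh18 fell with Sox11 K91A. Type II cadherins mark subsets of neurons, and the median log2 fold change of the 11 was -0.54 with Sox11 and -0.41 with Sox11 K91A. Cdh24 was at 4.94 and 5.76 CPM in control, 12.5 and 18.2 with Sox11, and 13.7 and 9.98 with Sox11 K91A. All 4 libraries with a Sox11 virus were higher, by a log2 fold change of 1.50 ± 0.30 with Sox11 (adjusted p = 0.022) and 1.13 ± 0.31 with Sox11 K91A, which missed the threshold (adjusted p = 0.063). The call was lost without control replicate 1, control replicate 2 or Sox11 replicate 2, and without control replicate 2 and Sox11 replicate 2 together.

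Cdh18 was at 14.5 and 11.8 CPM in control, 7.17 and 5.19 with Sox11, and 5.31 and 6.93 with Sox11 K91A. It fell by a log2 fold change of -1.10 ± 0.26 with both viruses (adjusted p = 0.031 and 0.044). The groups did not overlap, yet both calls were lost without control replicate 1 or either Sox11 K91A library, the call with Sox11 also without Sox11 replicate 2, alone or with control replicate 2, and that with Sox11 K91A also without control replicate 2. Cdh20 was at 14.5 and 22.2 CPM in control, 5.46 and 1.48 with Sox11, and 2.05 and 6.45 with Sox11 K91A. It had the largest fall of the type II genes that passed, 6.68-fold with Sox11, a log2 fold change of -2.74 ± 0.65 (adjusted p = 0.031). With Sox11 K91A the change was -2.36 ± 0.61 (adjusted p = 0.054). Its replicates differed more than those of Cdh18, and the call was lost without control replicate 2 or Sox11 replicate 2, alone or together. Cdh22 was at 40.9 and 32.4 CPM in control, 19.2 and 9.32 with Sox11, and 14.4 and 25 with Sox11 K91A. Its log2 fold change was -1.47 ± 0.38 with Sox11 (adjusted p = 0.038) and -0.94 ± 0.35 with Sox11 K91A (adjusted p = 0.12). The first was lost without either control library or Sox11 replicate 2, and without control replicate 2 and Sox11 replicate 2 together.

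Of the 4 type II cadherins with the highest mean TPM over all 6 libraries, Cdh6, Cdh11 and Cdh8 did not pass the test, while Cdh22 did with Sox11. Cdh6, which marks certain direction-selective RGCs, was at 116 and 38.0 CPM in control, 57.9 and 38.7 with Sox11, and 42.6 and 58.0 with Sox11 K91A. All 4 libraries with a Sox11 virus lay between the controls, so no direction can be given, and the sign of its log2 fold change turned from -0.49 ± 0.49 to 0.31 with Sox11 without control replicate 1. Cdh11, a cadherin of mesenchyme and brain, was at 36.5 and 21.9 CPM in control, 48.5 and 50.5 with Sox11, and 52.0 and 43.0 with Sox11 K91A, with log2 fold changes of 0.83 ± 0.24 (adjusted p = 0.054) and 0.77 ± 0.24 (adjusted p = 0.088). Cdh8 was at 70.9 and 47.2 CPM in control, 32.1 and 4.56 with Sox11, and 14.6 and 35.2 with Sox11 K91A. Its 2 Sox11 libraries were far apart, and its log2 fold change of -2.34 ± 0.78 had an adjusted p of 0.074.

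Among the other cadherins, Cdh23 was the gene with the largest fall of the whole set that passed. Cdh23 encodes a giant cadherin that forms, with Pcdh15, the tip links of sensory hair cells. The gene (ENSMUSG00000012819.11, GRCm38 chromosome 10, 60302748 to 60696490, minus strand) was at 8.87 and 6.07 CPM in control, 1.16 and 0.422 with Sox11, and 0.931 and 1.51 with Sox11 K91A. All 4 libraries with a Sox11 virus were below both controls. It fell 10.3-fold with Sox11, a log2 fold change of -3.37 ± 0.56 (adjusted p = 0.015), and 6.05-fold with Sox11 K91A, -2.60 ± 0.48 (adjusted p = 0.026). The calls held under 18 and 16 of 19 alternatives and were lost under the same settings as those of Cdh2.

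Pcdh15, its partner in tip links, was at 28.3 and 15.8 CPM in control, 13.1 and 5.55 with Sox11, and 8.47 and 12.5 with Sox11 K91A, with log2 fold changes of -1.31 ± 0.46 (adjusted p = 0.082) and -1.01 ± 0.44 (adjusted p = 0.17). Cdh13, or T-cadherin, which is held in the membrane by a lipid anchor and lacks a cytoplasmic tail, was at 79.6 and 85.8 CPM in control and between 53.6 and 69.7 in the other libraries, and did not pass (adjusted p = 0.097 and 0.27). Cdh17, known from liver and intestine, did not exceed 0.930 CPM and Cdh26 did not exceed 0.514, and neither passed. Pcdh20 was also low and was downregulated with both viruses. It was at 2.18 and 2.05 CPM in control, 0.764 and 0.845 with Sox11, and 0.590 and 0.617 with Sox11 K91A. The replicates of each group were close, and the log2 fold changes were -1.37 ± 0.38 (adjusted p = 0.048) and -1.78 ± 0.41 (adjusted p = 0.042). These p-values lay near the threshold. The call with Sox11 held under 6 of 19 alternatives and was lost when any 1 library was left out, and that with Sox11 K91A held under 11 and was lost without any control or Sox11 K91A library.

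**Figure D2:**
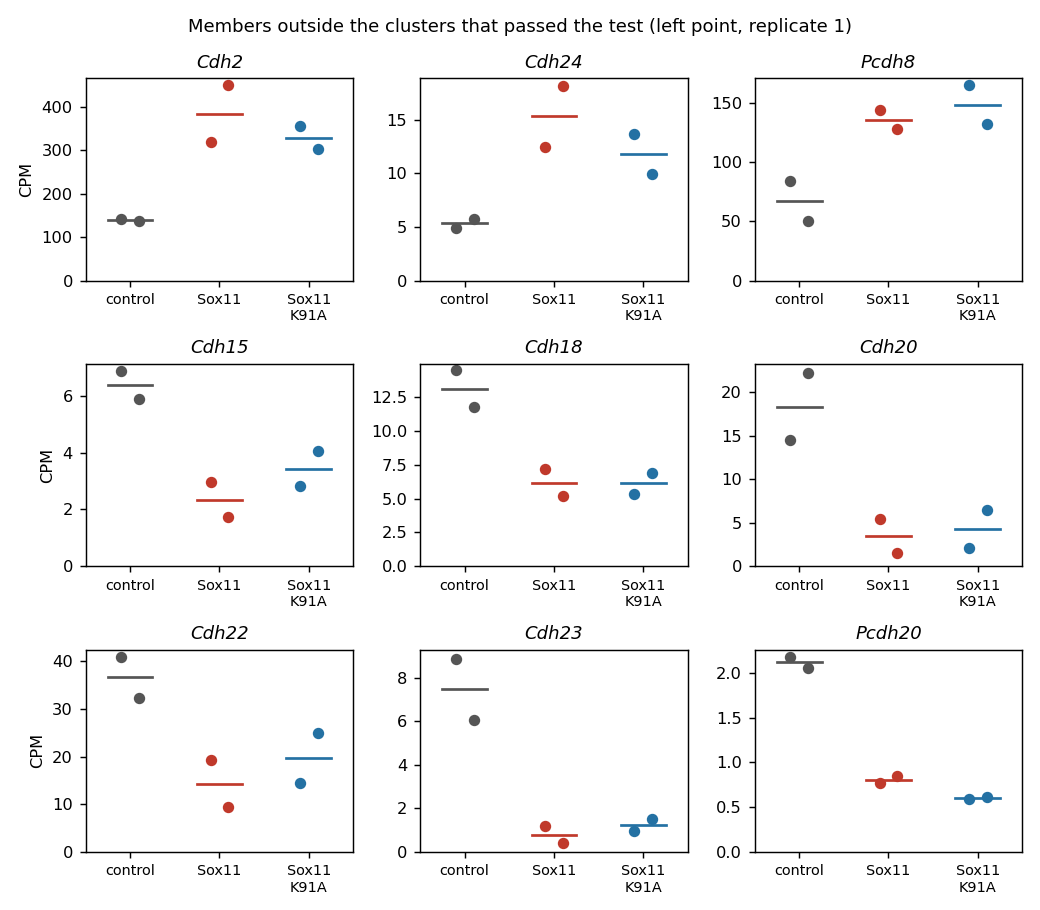
CPM per library (points, replicate 1 on the left) and group mean (lines) for the 9 genes outside the clusters that passed the test against control with at least 1 virus, each on its own linear axis from 0. In each panel the 4 libraries with a Sox11 virus lie on one side of both control libraries; Cdh2, Cdh24 and Pcdh8 are higher and the other 6 are lower.

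Of the delta-1 protocadherins, which have more extracellular repeats than the delta-2 type, none of 4 passed with limma-voom, and 0 had an adjusted p under 0.05 with either virus. Pcdh9 was at 245 and 147 CPM in control and between 187 and 221 in the other libraries, inside the range of the controls. Pcdh7 was at 303 and 169 CPM in control, 172 and 93.4 with Sox11, and 132 and 176 with Sox11 K91A, with a log2 fold change of -0.84 ± 0.37 with Sox11 (adjusted p = 0.14). Pcdh1 was at 160 and 117 CPM in control and between 96.3 and 109 in the other libraries (adjusted p = 0.15 and 0.19). Pcdh11x, on the X chromosome, was at 97.3 and 40.8 CPM in control and between 33.9 and 56.0 in the others. In Pcdh7, Pcdh9, Pcdh1 and Pcdh11x, control replicate 1 was the highest of the 6 libraries.

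Of the 5 delta-2 protocadherins, which bind the WAVE actin regulator in several cases, Pcdh8 passed. Pcdh8, also called arcadlin, is induced by neuronal activity and takes part in the internalization of N-cadherin. It (ENSMUSG00000036422.6, GRCm38 chromosome 14, 79766775 to 79771312, minus strand) was at 84.4 and 50.7 CPM in control, 144 and 128 with Sox11, and 165 and 132 with Sox11 K91A. The 4 libraries with a Sox11 virus were above both controls, by log2 fold changes of 1.06 ± 0.25 (adjusted p = 0.032) and 1.18 ± 0.25 (adjusted p = 0.036). The call with Sox11 was lost without control replicate 2 or either Sox11 library, and that with Sox11 K91A without control replicate 2 or either Sox11 K91A library.

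Pcdh17 was the most abundant delta-2 gene in control, at 423 and 168 CPM, and was at 144 and 75.1 with Sox11 and 97.2 and 156 with Sox11 K91A. All libraries with a Sox11 virus were below control, but the gap between the controls was wide, and the log2 fold changes of -1.36 ± 0.49 and -1.12 ± 0.49 did not pass (adjusted p = 0.089 and 0.17). Pcdh19, an X-linked gene that causes an epilepsy in people, was at 79.1 and 66.3 CPM in control and between 94.3 and 103 in the others, a log2 fold change of 0.50 ± 0.14 with Sox11 (adjusted p = 0.052). Pcdh10 was at 202 and 74.9 CPM in control and between 74.1 and 102 in the others, inside the control range but for Sox11 replicate 2.

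Sox proteins bind DNA through a high-mobility-group domain, and AACAAAG is a motif known for this family. RefSeq promoter sequences (GRCm38.p6) were at hand for 22 of the 92 symbols, with 25 starts, none of them from the clusters. In the 250 bases before the start, AACAAAG or its reverse complement was present in 3 of the 25, of Pcdh8, Cdh6 and Cdh26, and in 5.03% of all 32851 promoters. Of these 3 genes, Pcdh8 passed the test and is shown beside the abundant Cdh6, which did not; the motif, in capitals, begins 178 and 53 bases before the start. Each sequence is given 5′ to 3′ on the minus strand of the gene, Pcdh8 from chr14:79771313-79771562 and Cdh6 from chr15:13173676-13173925.
Pcdh8: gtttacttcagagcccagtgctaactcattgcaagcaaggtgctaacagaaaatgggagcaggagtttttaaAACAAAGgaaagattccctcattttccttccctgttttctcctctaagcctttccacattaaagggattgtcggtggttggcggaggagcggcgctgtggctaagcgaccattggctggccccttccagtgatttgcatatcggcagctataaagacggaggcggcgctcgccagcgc
Cdh6: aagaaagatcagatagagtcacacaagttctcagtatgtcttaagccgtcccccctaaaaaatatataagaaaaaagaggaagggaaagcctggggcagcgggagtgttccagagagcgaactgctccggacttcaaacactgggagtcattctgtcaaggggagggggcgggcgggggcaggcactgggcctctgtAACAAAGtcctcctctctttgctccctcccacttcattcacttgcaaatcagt
A match is a run of letters and was not measured as a binding site.

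Among the clustered protocadherins, 12 of the 57 tested rose with Sox11 and 5 with Sox11 K91A, and limma-voom called none lower with either virus. At an unadjusted p under 0.05, 30 of the 57 were higher with Sox11 and 22 with Sox11 K91A and 0 were lower with either, and edgeR and DESeq2 also called 0 lower. Over all genes tested, 18.7% were higher and 19.4% lower at that p with Sox11, and 15.5% and 15.1% with Sox11 K91A. The 12 were 8 gamma and 4 beta genes, and the 5 were 4 gamma genes and 1 beta gene. None of 14 alpha genes passed with limma-voom or edgeR with either virus, and DESeq2 called 1 higher with Sox11. At an unadjusted limma-voom p under 0.05, 5 of the 14 were higher with Sox11 and 2 with Sox11 K91A, and 0 were lower. Of all genes, 18.7% and 15.5% were higher at that p, and 38% and 30.6% had one in either direction. The median log2 fold change with Sox11 was 0.76 for gamma, 0.65 for beta and 0.29 for alpha genes, and with Sox11 K91A 0.60, 0.58 and 0.21. Reads from shared exons set a limit here. Between 38.0% and 54.9% of the exonic bases of an alpha gene and between 27.8% and 66.8% of those of a gamma gene belonged to other genes of the cluster too, no alpha or gamma count was whole to within 0.005, and RSEM's own posterior SD was at the median 2.80% of the count in alpha and 3.3% in gamma genes. Single alpha and gamma values are therefore RSEM's estimates of a split. Of the 22 beta genes, 20 shared no bases with other genes of the set and 16 had whole counts in all 6 libraries.

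Pcdhgc3, a C-type gamma gene known to promote branching of dendrites, had the largest rise of the whole set that passed. Pcdhgc3 (ENSMUSG00000102918.1, GRCm38 chromosome 18, 37806364 to 37841873, plus strand) was at 73.5 and 41.4 CPM in control, 206 and 277 with Sox11, and 279 and 190 with Sox11 K91A. The lowest library with a Sox11 virus, at 190 CPM, was above the higher control. It rose 4.35-fold with Sox11, a log2 fold change of 2.12 ± 0.32 (adjusted p = 0.013), and 4.20-fold with Sox11 K91A, 2.07 ± 0.32 (adjusted p = 0.020). The call with Sox11 was lost only without Sox11 replicate 2, and that with Sox11 K91A only without control replicate 2 or Sox11 K91A replicate 1, of 19 alternatives each. Its share of the summed gamma TPM was 11.0% and 6.50% in control, 21.0% and 21.7% with Sox11, and 23.9% and 19.0% with Sox11 K91A.

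Its neighbours Pcdhgc4 and Pcdhgc5 did not pass. Pcdhgc4, the gamma gene needed for survival of many interneurons, was at 93.9 and 177 CPM in control, 111 and 191 with Sox11, and 158 and 134 with Sox11 K91A. Replicates differed here as much as groups did, and both log2 fold changes were 0.18 ± 0.35 (adjusted p = 0.74 and 0.77). Pcdhgc4 and Pcdhgc5, unlike all the other gamma genes, were higher in control replicate 2 than in control replicate 1. Pcdhgc4 took 25% of the summed gamma TPM in control replicate 1 and 53.2% in control replicate 2. Pcdhgc5 was low, between 3.44 and 4.92 CPM in all libraries, with log2 fold changes of -0.20 ± 0.26 and -0.44 ± 0.26 (adjusted p = 0.60 and 0.31).

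The other gamma genes that passed were Pcdhga10, Pcdhga11, Pcdhga12, Pcdhgb4, Pcdhgb5, Pcdhgb6 and Pcdhgb7 with Sox11, of which Pcdhga11, Pcdhgb6 and Pcdhgb7 also passed with Sox11 K91A. They differ in the outer domains through which these proteins recognise the same isoform on another cell. Pcdhga11 was at 59.1 and 32.0 CPM in control, 93.6 and 108 with Sox11, and 102 and 92.7 with Sox11 K91A, with log2 fold changes of 1.23 ± 0.27 (adjusted p = 0.027) and 1.18 ± 0.27 (adjusted p = 0.042). Pcdhgb6 was at 49.3 and 35.4 CPM in control, 72.5 and 82.8 with Sox11, and 72.6 and 73.2 with Sox11 K91A, changes of 0.90 ± 0.19 (adjusted p = 0.022) and 0.81 ± 0.19 (adjusted p = 0.041). Pcdhgb7 was at 29.2 and 19.5 CPM in control, 44.5 and 49.0 with Sox11, and 42.9 and 41.6 with Sox11 K91A, changes of 0.99 ± 0.20 (adjusted p = 0.022) and 0.85 ± 0.20 (adjusted p = 0.046). In all 3 genes the groups did not overlap and control replicate 1 was the higher control. The calls of Pcdhgb6 and Pcdhgb7 with Sox11 were lost only without Sox11 replicate 2, that of Pcdhga11 without either Sox11 library, and all 3 calls with Sox11 K91A were lost when any library but control replicate 1 was left out.

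Pcdhga12 rose with Sox11 by 1.24 ± 0.30 on the log2 scale (adjusted p = 0.032), from 28.5 and 16.7 CPM in control to 43.3 and 58.2, and was at 54.6 and 39.7 with Sox11 K91A (adjusted p = 0.057). Its call was lost without control replicate 2 or Sox11 replicate 2, alone or together. The other 3 had smaller changes with adjusted p between 0.041 and 0.049. Pcdhgb5 changed by 0.78 ± 0.21, Pcdhgb4 by 0.77 ± 0.22 and Pcdhga10 by 0.68 ± 0.19 on the log2 scale. These 3 calls held under 7, 5 and 6 of 19 alternatives and were lost without any library but control replicate 1, and also without control replicate 2 and Sox11 replicate 2 together. Along the chromosome, the 8 genes that passed with Sox11 stood between places 10 and 20 of the 22, so none of the first 9 gamma genes passed. These 9 had log2 fold changes between 0.21 and 0.91 with Sox11. Over the 19 genes of types A and B, whose shared exons make the values depend on each other, the rank correlation of place with log2 fold change was 0.371 with Sox11 and 0.188 with Sox11 K91A, and over all 22 gamma genes it was 0.0971 and -0.0175.

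In the beta cluster, whose proteins have no shared cytoplasmic domain, Pcdhb7, Pcdhb9, Pcdhb11 and Pcdhb18 rose with Sox11 and Pcdhb5 with Sox11 K91A. All 5 had whole counts in every library. Pcdhb9 was at 18.7 and 17.2 CPM in control, 26.8 and 26.7 with Sox11, and 27 and 26.5 with Sox11 K91A. The log2 fold change was 0.58 ± 0.15 with both viruses, which passed with Sox11 (adjusted p = 0.038) and not with Sox11 K91A (adjusted p = 0.053), so the same change fell on different sides of the threshold. Pcdhb11 was at 9.12 and 6.72 CPM in control, 14.6 and 14.8 with Sox11, and 14.4 and 13.5 with Sox11 K91A, changes of 0.93 ± 0.22 (adjusted p = 0.030) and 0.86 ± 0.22 (adjusted p = 0.051). Pcdhb7 rose by 0.75 ± 0.19 (adjusted p = 0.037) and Pcdhb18 by 0.70 ± 0.18 (adjusted p = 0.036) with Sox11. Pcdhb5 was at 5.26 and 6.07 CPM in control, 8.59 and 9.02 with Sox11, and 10.5 and 10.4 with Sox11 K91A, and its change of 0.87 ± 0.21 passed with Sox11 K91A (adjusted p = 0.047). The 5 beta calls held under 6 to 10 of 19 alternatives. Each was lost without control replicate 2 and without either Sox11 K91A library, and each but Pcdhb5 without control replicate 2 and Sox11 replicate 2 together. All were lost without Sox11 replicate 2, those of Pcdhb5, Pcdhb9 and Pcdhb11 without Sox11 replicate 1, and those of Pcdhb5 and Pcdhb7 without control replicate 1.

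Pcdhb17 and Pcdhb20, abundant beta genes, did not pass, with log2 fold changes of 0.36 ± 0.17 (adjusted p = 0.17) and 0.52 ± 0.17 (adjusted p = 0.064) with Sox11. Over the 21 beta genes tested the changes ranged from -0.17 to 1.11 with Sox11 and from -0.11 to 1.13 with Sox11 K91A, and the largest, of Pcdhb21, had an SE of 0.48.

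In the alpha cluster the C-type gene Pcdhac2, known for the spacing of serotonergic axons, was at 350 and 183 CPM in control, 235 and 219 with Sox11, and 211 and 230 with Sox11 K91A. All 4 libraries with a Sox11 virus lay between the controls. Pcdha7 was at 57.8 and 49.4 CPM in control, 71.0 and 76.2 with Sox11, and 65.1 and 65.1 with Sox11 K91A, with log2 fold changes of 0.46 ± 0.14 (adjusted p = 0.059) and 0.29 ± 0.14 (adjusted p = 0.22). Pcdha2 was at 43.5 and 31.9 CPM in control, 50.3 and 57.5 with Sox11, and 55.7 and 54.9 with Sox11 K91A, changes of 0.54 ± 0.18 (adjusted p = 0.075) and 0.58 ± 0.18 (adjusted p = 0.084). Pcdha5 changed by 0.54 ± 0.19 and 0.46 ± 0.19 (adjusted p = 0.086 and 0.16). Of the 14 alpha genes, 7 lay above both controls in both libraries with Sox11 and 1 lay below, and with Sox11 K91A the counts were also 7 and 1. The share of all genes set apart in this way was not worked out, so no shift is read from these counts. Pcdha4 was between 49.5 and 62.0 CPM in all libraries, and Pcdhac1 between 16.6 and 37.2, and neither passed.

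**Figure D3:**
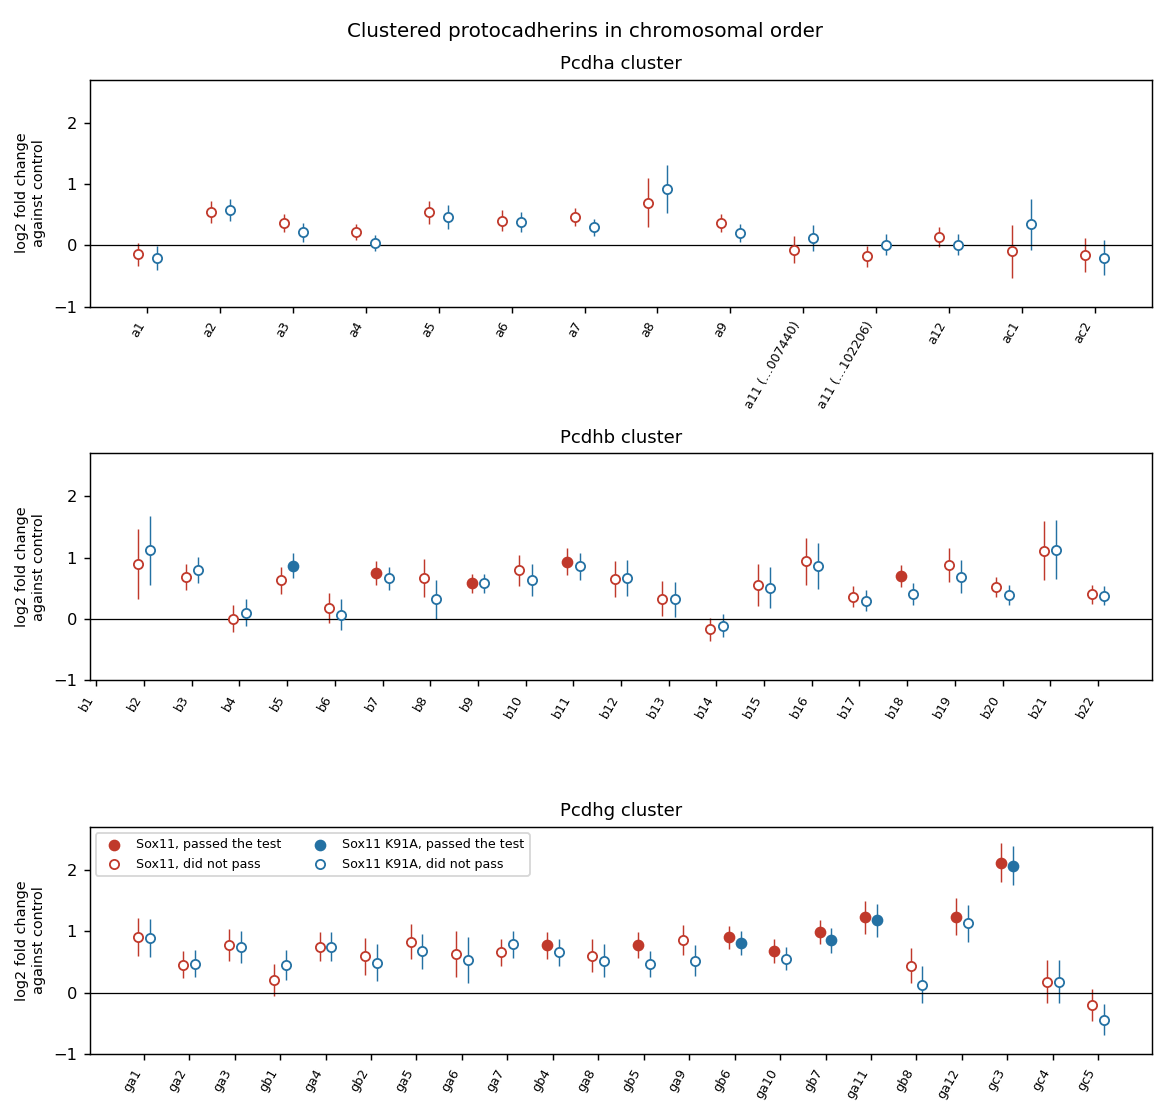
Log2 fold change against control with its SE for each gene of the alpha (top), beta (middle) and gamma (bottom) cluster in chromosomal order, for Sox11 (red) and Sox11 K91A (blue); filled points passed the test, and the untested Pcdhb1 has no point. Pcdhgc3 stands out in the gamma cluster at 2.12 and 2.07, and Pcdhgc4 and Pcdhgc5 beside it are near 0 or below.

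Sums over a whole cluster do not depend on how reads were split among its own genes, and were compared without a test. They still depend on the split with genes outside the set, which overlapped the exons of all 22 gamma genes (9.33% to 68.5% of exonic bases, and 39.8% in Pcdhgc3), of 5 of the 14 alpha genes and of 1 of the 22 beta genes. The gamma sum was 593.7 and 486.8 CPM in control, 885.2 and 1091 with Sox11, and 1013 and 876.1 with Sox11 K91A, so that the mean was 1.83 and 1.75 times that of control and the groups did not overlap. The beta sum was 257.2 and 197.8 CPM in control, 312.8 and 336.7 with Sox11, and 314.8 and 312.4 with Sox11 K91A, ratios of 1.43 and 1.38. The alpha sum was 821.4 and 560.6 CPM in control, 748.4 and 735.6 with Sox11, and 707.6 and 720.4 with Sox11 K91A. The alpha sums with a Sox11 virus lay between the 2 controls, with ratios of 1.07 and 1.03. The log2 ratio of the alpha sum with Sox11 was 0.40 without control replicate 1 and -0.15 without control replicate 2, and with Sox11 K91A it was 0.35 and -0.20.

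**Figure D4:**
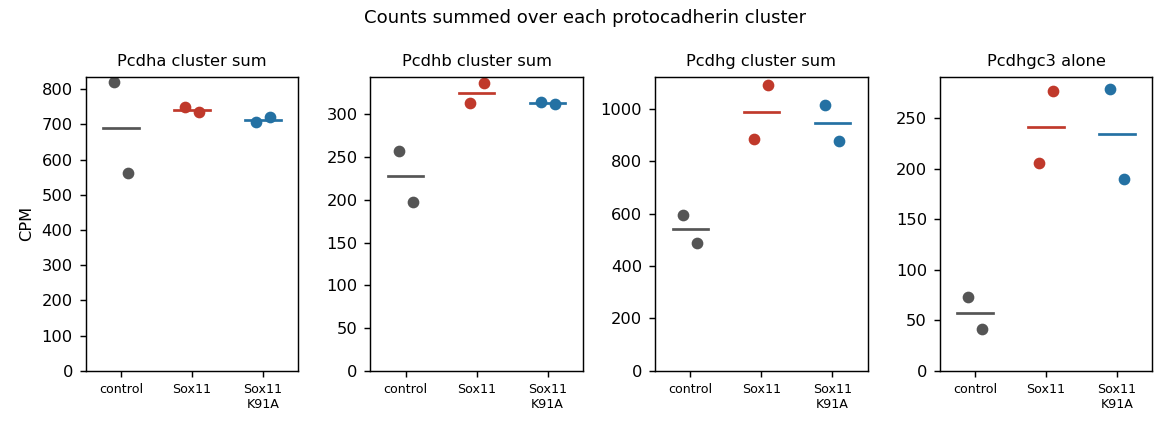
CPM per library (points, replicate 1 on the left) and group mean (lines), summed over the alpha, beta and gamma clusters and for Pcdhgc3 alone, each on a linear axis from 0. The gamma and beta sums with a Sox11 virus are above both controls, and the alpha sums of 707.6 to 748.4 lie between the controls.

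The second question was whether Sox11 K91A differed from Sox11. Limma-voom called 0 of the 87 genes, as it called 0% of all 15747 genes, and 0 of the 87 had an unadjusted p under 0.05. edgeR and DESeq2 also called 0 of the 87. Log2 differences of Sox11 K91A against Sox11 over the 87 genes ranged from -0.41 to 2.96, the highest in Cdh9, which had a 95% interval of -1.06 to 6.97 and did not exceed 0.583 CPM with either virus. For Cdh2 the difference was -0.20 with a 95% interval of -0.67 to 0.26, and for Pcdhgc3 -0.05 with an interval of -0.81 to 0.70. For Pcdh8 it was 0.12, between -0.49 and 0.72, and for Cdh23 0.77, between -0.80 and 2.35. The intervals of all 22 genes that passed against control include 0. They do not show that the viruses act alike, since those of Cdh23, Cdh20, Cdh22, Cdh15 and Pcdh20 reach past a 2-fold difference. Genes that passed with 1 virus alone were thus not shown to differ between the viruses.

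**Figure D5:**
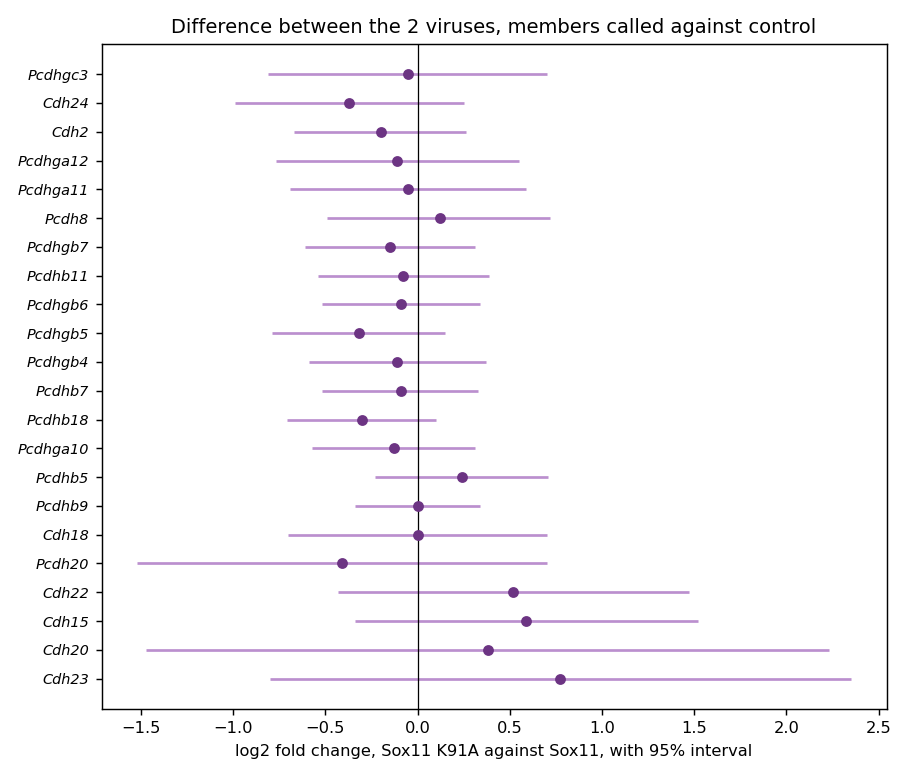
Log2 fold change of Sox11 K91A against Sox11 (points) with its 95% interval (lines) for the 22 genes that passed the test against control with at least 1 virus, ordered by their change with Sox11. All 22 intervals include 0, and the widest are those of Cdh20 and Cdh23.

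Proteins that bind or resemble cadherins were followed as separate lists. The shares of all genes called, to read these counts against, were 9.96% higher and 10.2% lower with Sox11 and 5.81% and 4.81% with Sox11 K91A. Of 9 catenins and plakophilins tested, 3 rose with both viruses and 1 fell with Sox11. Ctnnd1, or p120-catenin, which keeps cadherins at the surface, was at 106 and 78.8 CPM in control, 217 and 277 with Sox11, and 238 and 196 with Sox11 K91A, log2 fold changes of 1.42 ± 0.21 (adjusted p = 0.013) and 1.24 ± 0.21 (adjusted p = 0.022). The alpha-catenins Ctnna1 and Ctnna2, which tie the complex to actin, rose by 1.2 ± 0.21 and 1.09 ± 0.19 with Sox11 (adjusted p = 0.016 and 0.017) and by 1.04 ± 0.21 and 0.98 ± 0.19 with Sox11 K91A (adjusted p = 0.032 and 0.030). Ctnnb1, or beta-catenin, was between 317 and 371 CPM in control and between 431 and 457 in the others, a log2 fold change of 0.37 ± 0.14 with Sox11 that did not pass. Pkp4, a relative of p120-catenin, fell with Sox11 by 0.72 on the log2 scale (SE 0.18, adjusted p = 0.038).

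Of 8 large and seven-pass cadherins tested, Fat1 and Dchs1, from families that bind each other in planar polarity, rose with both viruses, Dchs1 from 184 and 108 CPM in control to 301 and 326 with Sox11 and 336 and 286 with Sox11 K91A. Of 6 cadherin-related genes tested, 4 fell with Sox11 and 3 with Sox11 K91A. Cdhr1, a protocadherin-like gene of photoreceptors, was at 66.5 and 117 CPM in control, 21.5 and 7.18 with Sox11, and 10.3 and 27.1 with Sox11 K91A, with log2 fold changes of -2.87 ± 0.60 and -2.41 ± 0.56 (adjusted p = 0.023 and 0.042). Of the photoreceptor markers, Crx did not exceed 0.392 CPM in any library and Rcvrn had no count. Nrl was at 0.644 and 1.27 CPM in control, 0.619 and 0.121 with Sox11, and 0.497 and 0.274 with Sox11 K91A, and did not pass with either virus (adjusted p = 0.16 and 0.31). Gnat1 was at 0.286 and 0.597 CPM in control and at most 0.146 in the others, and was too low to be tested. Both were thus lower with the viruses without overlap, as Cdhr1 was, and their part in its fall was not tested. The desmosomal genes Dsc2 and Dsg2 fell with both viruses from at most 5.84 CPM, and the calsyntenin Clstn3 fell with Sox11. Of 17 genes that regulate clustered protocadherin promoters, cut cadherins or act below protocadherins, Nipbl, Dnmt3b, Adam10, Ptk2 and Wasf1 rose with Sox11 and Wasf1 with Sox11 K91A. Adam10, the protease that cuts N-cadherin and gamma protocadherins, was at 74.4 and 77.4 CPM in control, 137 and 214 with Sox11, and 148 and 124 with Sox11 K91A, and rose with Sox11 by 1.17 ± 0.22 on the log2 scale (adjusted p = 0.019). Ctcf, the factor that joins clustered protocadherin promoters to their enhancers, was at 51.5 and 48.0 CPM in control and between 62.1 and 66.2 in the others, a change of 0.37 ± 0.13 with Sox11 that did not pass.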

How the data were processed

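RNA was sequenced from 3 groups of cultured RGCs with 2 libraries each. The authors aligned reads to mm10 with STAR and deposited RSEM tables with an expected count and a TPM value per gene and library. Versions, annotation release and strand setting are not given in the sources used here. Symbols and coordinates came from GENCODE M21 (GRCm38), which named 98.0% of the Ensembl genes.

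The 26344 entries outside the mouse Ensembl genes, with 1 count in all, were left out. Expected counts were rounded, filtered with filterByExpr of edgeR (version 4.0.16) and scaled by TMM (factors 0.985 to 1.04). The 15747 genes left were fitted over all 6 libraries with limma-voom in R version 4.3.3 (limma, version 3.58.1) and called at a two-sided FDR under 0.05 and a fold change above 1.2, the thresholds of the study's methods. DESeq2 (version 1.42.0) was an alternative. Alternatives covered tests, filters, scaling, blocks and left-out libraries. The fit was tested on simulated data. Figures were drawn in matplotlib 3.10.9 under Python 3.11.15 (pandas 2.3.3). Exonic bases shared between genes were counted in GENCODE M21.

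Named genes were all members called, the 4 highest of each subgroup by mean TPM (3 in each cluster), all type I cadherins and all C-type clustered genes. Of the other lists, genes called were named, and Ctnnb1 and Ctcf were chosen after their values were seen, as were some further members and markers. The members, lists and promoter motif were chosen with earlier results of these data known. Pericyte and fibroblast, oligodendrocyte and photoreceptor markers were also listed, with sums of 5.82 to 19.2, 29.7 to 49.6 and 0.446 to 2.26 CPM, and of these genes Pdgfra alone passed, higher with Sox11. Counting error alone is covered by the value of 1 count given.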

Additional observations from a re-analysis of the deposited data

How the results depend on the processing

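With 2 libraries a group, most calls depended on the setting, while no gene that passed against control turned its sign under any of the 19 alternatives. The main counts were 15 higher and 6 lower with Sox11 and 7 and 3 with Sox11 K91A, and the same order is kept here. They were 12 and 3, then 5 and 2, with edgeR, 22 and 9, then 14 and 5, with DESeq2, 5 and 1, then 6 and 3, with sample quality weights, 7 and 2, then 2 and 1, with limma-trend on log2(TPM + 1), 9 and 5, then 5 and 1, with all genes of at least 1 count, 7 and 3, then 2 and 4, with only the 2 groups compared, 23 and 11, then 7 and 8, with control replicate 2 and Sox11 replicate 2 coded as a block, and 6 and 7, then 11 and 16, without these libraries. Leaving out 1 library in turn gave 0 to 38 higher and 0 to 8 lower with Sox11, and 0 to 27 and 0 to 4 with Sox11 K91A. Shares of all genes called moved too, in the same order. They were 9.34% and 8.68%, then 5.42% and 3.63%, with edgeR, and 13.4% and 14.1%, then 9.85% and 10.1%, with DESeq2. Quality weights gave 3.35% and 2.87%, then 4.01% and 4.88%, and limma-trend 8.33% and 5.92%, then 3.51% and 2.43%. All genes of at least 1 count gave 5.85% and 6.18%, then 3.44% and 2.69%. The 2 groups alone gave 5.17% and 5.19%, then 5.67% and 5.6%, and the block 13.7% and 15.2%, then 8.42% and 9.96%. The cause of these shifts was not tested. Between the viruses, every setting called 0 genes of the set.

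With the replicate block the counts were 10 and 5 with Sox11 and 4 and 1 with Sox11 K91A. Of all genes, 8.27% were then higher and 8.74% lower with Sox11, and 4.74% and 4.17% with Sox11 K91A. The pairing rests on replicate numbers alone. Over all genes, deviations from the group means correlated at 0.259 for same-numbered control and Sox11 libraries. With Sox11 K91A, the value was -0.0448 for control and -0.282 for Sox11. The block changed no call between the viruses, and with the numbers crossed, an alternative chosen after seeing the data, 0 genes were called. Leaving out the libraries that stand apart was also chosen after seeing the data.

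Leaving out 1 library moved the log2 ratio of the alpha sums between -0.15 and 0.40 with Sox11 and -0.20 and 0.35 with Sox11 K91A, and that of the beta sums between 0.34 and 0.72 and between 0.29 and 0.66. Control replicate 1 gave the upper and control replicate 2 the lower end. Gamma ratios stayed between 0.67 and 1.02.

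Log2 fold changes that turned their sign belonged to genes that had not passed. Pcdh9 was at -0.28 with Sox11 and -0.35 with Sox11 K91A without the libraries that stand apart, and with Sox11 K91A at -0.13 with a block for them, -0.04 with DESeq2, -0.03 with edgeR, and -0.01 both with library size alone and with quality weights. With Sox11 K91A, Pcdhac1 was at -0.21 without the libraries that stand apart and -0.22 with the block for them, Cdh3 at -0.02 with that block, and Pcdha4 at 0 with library size alone. Between the viruses, Cdh2 was at 0.04 and Pcdhgc3 at 0.16 without the libraries that stand apart, and Pcdh8 at -0.11 with the block for them. The difference between the viruses was planned for all 46 named genes tested. It is given by setting for the 4 genes whose difference the report prints, a restriction made after the values were seen. Of the 46, 30 changed sign under at least 1 of the 19 alternatives, with main log2 differences of up to 0.98, and 0 were called under any, so no direction is read from them. With 1 library left out, the ranges with Sox11 were -1.59 to 3.24 for Cdh26, -0.05 to 0.68 for Cdh3, -1.31 to 0.31 for Cdh6, -1.22 to 0.21 for Pcdh10, -1.18 to 0.08 for Pcdh11x, -0.22 to 0.52 for Pcdh9, -0.66 to 0.47 for Pcdhac1, -0.63 to 0.31 for Pcdhac2 and -0.28 to 0.63 for Pcdhgc4. With Sox11 K91A they were -1.22 to 0.39 for Cdh6, -1.09 to 0.34 for Pcdh10, -1.03 to 0.22 for Pcdh11x, -0.35 to 0.39 for Pcdh9, -0.04 to 0.10 for Pcdha4, -0.21 to 0.82 for Pcdhac1, -0.67 to 0.27 for Pcdhac2 and -0.27 to 0.64 for Pcdhgc4. Between the viruses they were -0.44 to 0.04 for Cdh2, -0.05 to 0.28 for Pcdh8 and -0.33 to 0.23 for Pcdhgc3. Cdh26, the widest of these ranges, did not exceed 0.514 CPM and had no count in control replicate 2 and Sox11 replicate 2.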

Other observations

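The cadherins and protocadherins not described above did not pass the test against control. Among type II cadherins, Cdh10 was at 17.1 CPM in control replicate 1 and between 5.34 and 7.54 in the other 5 libraries. Cdh7 was between 4.34 and 8.91 CPM, Cdh12 between 4.36 and 9.23, and Cdh9 at most 1.65, and in each control replicate 1 was the highest. The delta-2 gene Pcdh18 was at 23.4 and 10.6 CPM in control, 14.3 and 4.46 with Sox11, and 7.26 and 14.8 with Sox11 K91A.

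In 3 beta genes the 4 libraries with a Sox11 virus lay close to each other or to control replicate 1, and control replicate 2 was far below. Pcdhb21 was at 8.73 and 2.61 CPM in control, 10.5 and 9.07 with Sox11, and 10.1 and 9.54 with Sox11 K91A. Pcdhb16 was at 15.1 and 5.94 CPM in control and between 16.2 and 18.2 in the others. Pcdhb2 was at 6.94 and 1.74 CPM in control and between 5.19 and 7.39 in the others. Pcdhb14, by contrast, was between 9.35 and 11.0 CPM in all 6 libraries, and Pcdhb4 between 7.39 and 9.02. Among alpha genes, Pcdha3, Pcdha6 and Pcdha9 lay above both controls with both viruses, with log2 fold changes of 0.36, 0.40 and 0.36 with Sox11 and 0.21, 0.38 and 0.20 with Sox11 K91A, while Pcdha1 and Pcdha12 stayed between 12 and 15.8 CPM and between 35.4 and 46.2 CPM. The remaining Pcdhga and Pcdhgb genes had log2 fold changes between 0.21 and 0.91 with Sox11 and between 0.13 and 0.89 with Sox11 K91A.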
